A study of Mus musculus with 6 samples.

Results

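Aminoacyl-tRNA synthetases are the enzymes that load each amino acid onto its tRNA before protein synthesis. The genes described here are 36 of the 36699 rows of the deposited gene table, found by exact match of the gene symbol to a list of synthetases. They comprise 20 genes for cytosolic enzymes and 16 for mitochondrial enzymes, the mitochondrial ones being those whose symbol ends in 2. Each of the 36 had 1 row of its own, and 34 were tested by the authors (18 cytosolic, 16 mitochondrial), while Wars and Farsa had status FAIL and no test. The list is not a full catalogue of synthetases.

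The libraries came from mouse A2Lox.cre embryonic stem (ES) cells, a line with a doxycycline-responsive site for an inducible transgene, grown on feeder fibroblasts and then freed of them to form embryoid bodies. The plus Dox group held 3 libraries of cells given doxycycline on day 2 for 24 hours, which switches on Flag-tagged Sp5. The minus Dox group held 3 libraries of the same line without the drug, and both groups were harvested on day 3. The study asked which genes Sp5, a zinc-finger transcription factor of the Sp family, regulates in differentiating ES cells. A drug-only control was not analysed here, so effects of doxycycline and of Sp5 cannot be told apart, and the labels do not say whether libraries of a group came from separate cultures.

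The cytosolic enzymes serve ribosomes in the cytoplasm, and several of them are held in one particle, the multisynthetase complex, by 3 scaffold proteins. The mitochondrial enzymes are also encoded in the nucleus and are imported to charge the tRNAs of the mitochondrial genome. Lysyl- and glycyl-tRNA synthetase (Kars and Gars) are made in both forms from a single gene. In mammalian cells, many cytosolic synthetase genes are known targets of ATF4, the transcription factor of the amino acid response, which also switches on enzymes of amino acid synthesis and amino acid transporters.

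Synthetase transcripts stood at nearly the same level with and without induced Sp5, with log2 fold changes (plus Dox over minus Dox) between -0.26 and 0.13 in the tested members. The authors' deposited table calls 0 of 18 tested cytosolic genes and 1 of 16 tested mitochondrial genes at q under 0.05, from a Cuffdiff test adjusted over all tested rows. At an unadjusted p under 0.05 the counts were 1 and 1, against 5780 of all 18537 tested rows. In the range of levels of the cytosolic members, 614 of 1624 tested rows met that p. In the range of the mitochondrial members, 3048 of 8089 did. Of all 18537 tested rows, 23.2% were called (10.5% higher, 12.7% lower). Among rows within the range of levels of the cytosolic members 26.8% were called (6.40% higher, 20.4% lower), and within that of the mitochondrial members 28.8% (11.5% higher, 17.3% lower). For comparison, the induced gene Sp5 had 126 FPKM in plus Dox cells and 0.769 FPKM in minus Dox cells. FPKM are fragments per length of transcript, scaled to the number of mapped fragments, and each is the authors' single value for a group of 3 libraries, without an error of its own.

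**Figure D1:**
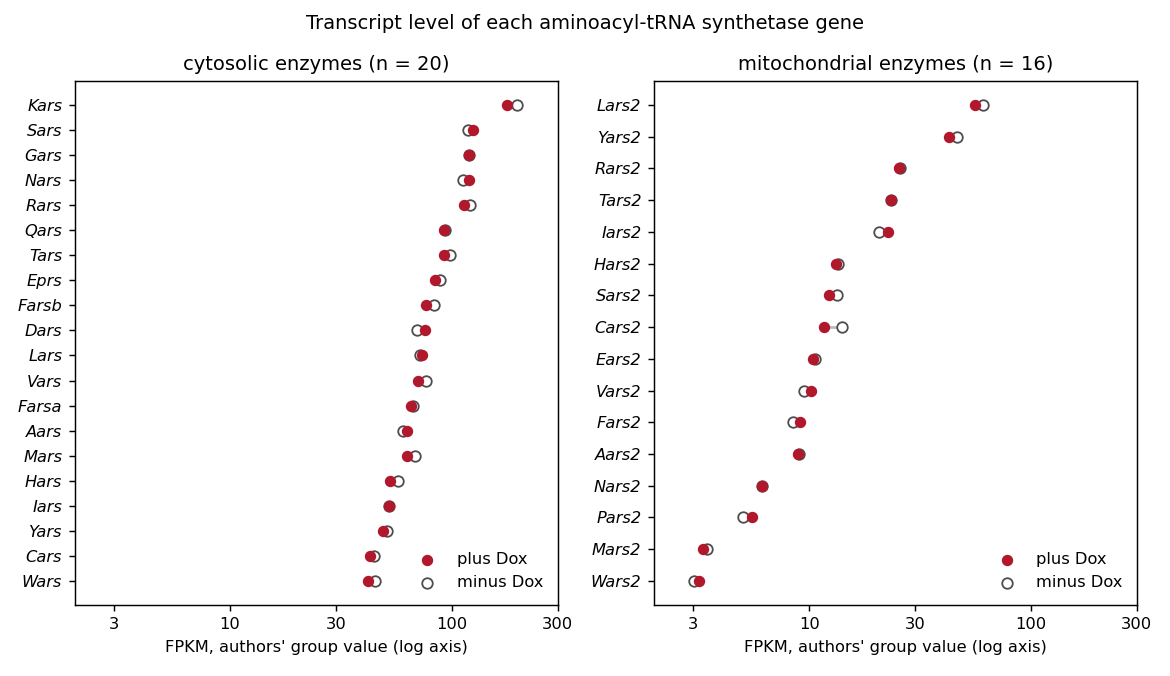
Transcript level of each member in FPKM on a log axis, cytosolic enzymes on the left and mitochondrial enzymes on the right, with filled points for plus Dox and open points for minus Dox cells. The cytosolic genes lie between 41.8 and 196 FPKM and the mitochondrial ones between 3.04 and 60.6 FPKM, and the points of a gene nearly coincide.

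The called member was Cars2, the mitochondrial cysteinyl-tRNA synthetase (row XLOC_031430, mm9 chromosome 8, 11514021 to 11550771). Its level was 11.7 FPKM in plus Dox cells, against 14.0 FPKM in minus Dox cells. That is a log2 fold change of -0.26 (95% interval -0.45 to -0.06, q = 0.0405 in the authors' deposited table), and the level fell by 16.5%. No other row shared its locus. The cytosolic counterpart Cars stood at 42.6 FPKM in plus Dox cells and at 44.7 FPKM in minus Dox cells, with q = 0.693 in the authors' deposited table. The call of Cars2 was lost at q under 0.01 and under Benjamini-Yekutieli adjustment.

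The promoter of Cars2 is shown as that of the single called member. It is the 250 bases before the transcript start from RefSeq, build GRCm38.p6, chr8:11550772-11551021, minus strand, written 5′ to 3′ on the gene's strand. Capitals mark matches, on either strand, to GGGCGG (the GC box bound by Sp factors), GATGNAA (core of the element bound by ATF4) or CACGTG (the E-box bound by Myc and Max).
Cars2: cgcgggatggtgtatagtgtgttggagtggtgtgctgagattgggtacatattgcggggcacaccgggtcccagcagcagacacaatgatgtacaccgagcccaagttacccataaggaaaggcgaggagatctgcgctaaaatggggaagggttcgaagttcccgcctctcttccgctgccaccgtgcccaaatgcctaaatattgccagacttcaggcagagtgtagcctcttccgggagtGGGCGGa
It held 1 GC box, 7 bases before the start, and neither of the other motifs. In full windows of 300 bases (250 before and 50 after the start), found for 26 of the 36 members, a GC box stood in 66.7% of 12 windows of cytosolic members and in 73.3% of 15 windows of mitochondrial members, Aars2 having more than 1 window. The share was 35.7% of all 32851 windows and 59.1% of the windows of tested genes. An E-box stood in 4 of the cytosolic windows (33.3%) and 1 of the mitochondrial ones (6.67%). The share was 7.15% of all windows and 9.49% of the windows of tested genes. These matches describe letters and are not binding sites.

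Intervals in this text follow from the authors' own test, in which the statistic is, apart from its sign, the log ratio divided by its standard error. The deposited statistic of each tested member has the opposite sign to its plus over minus Dox fold change, so sizes without sign were used. The standard error of the log2 fold change obtained in this way was 0.06 to 0.12 for the tested cytosolic members and 0.06 to 0.22 for the mitochondrial ones. With these errors, a call needed a rise of 11.6% to 22.6% in a cytosolic member (median 12.9%) and of 11.7% to 48.2% in a mitochondrial one (median 17.9%). For a fall, the sizes needed were 10.4% to 18.4% in a cytosolic member (median 11.5%) and 10.5% to 32.5% in a mitochondrial one (median 15.1%). The 95% intervals of all 34 tested members lay within a 1.5-fold change in either direction, and those of 18 members within 1.2-fold. The interval held a fold of 1 for 32 members, and excluded it for Cars2 and Kars. A q above the threshold does not show that a level was identical.

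**Figure D2:**
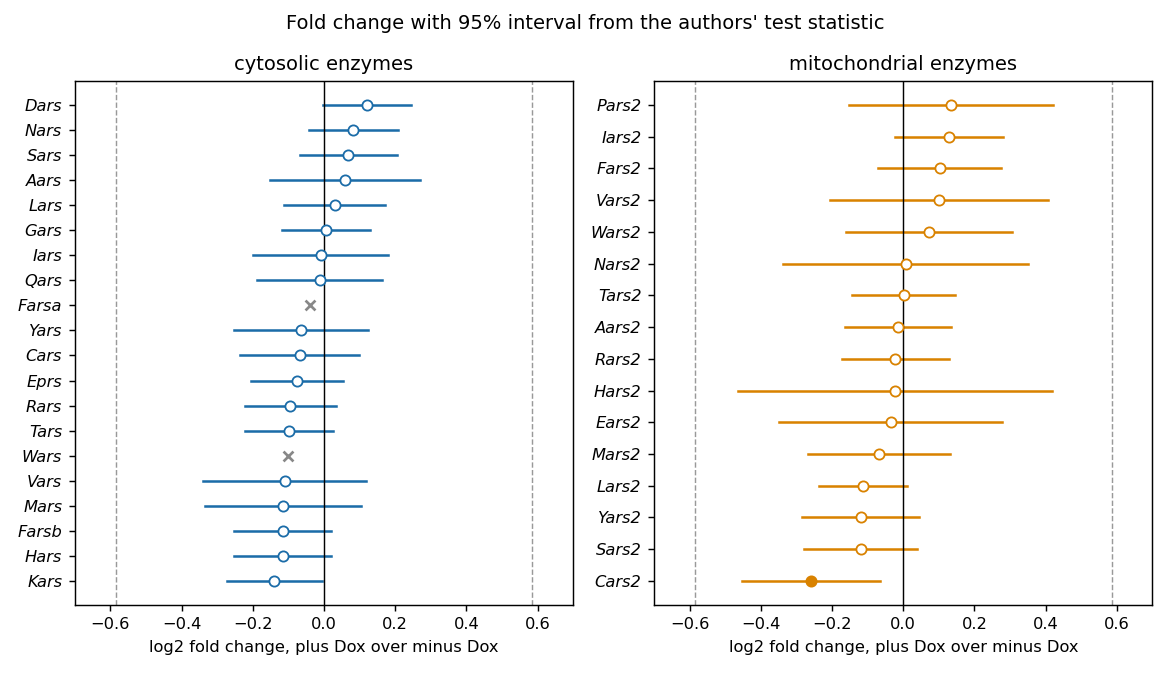
Log2 fold change, plus Dox over minus Dox, of each member with its 95% interval from the authors' test statistic. Filled points passed q under 0.05, open points did not, crosses mark the untested Wars and Farsa, and dashed lines mark a 1.5-fold change; only Cars2 is filled and every interval lies inside the dashed lines.

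The cytosolic enzymes of the multisynthetase complex had no called member. Of its 8 enzymes, all tested, 0 passed q under 0.05 in the authors' deposited table, against 23.2% of all tested rows. Unadjusted, 1 had a p under 0.05, against 5780 of all 18537 tested rows. Kars, the lysyl-tRNA synthetase, was the most abundant synthetase transcript in both groups, at 178 FPKM in plus Dox cells and 196 FPKM in minus Dox cells. Its log2 fold change was -0.14 (95% interval -0.27 to -0.01, p = 0.0397 and q = 0.134 in the authors' deposited table), the smallest q among uncalled members. Dars, the aspartyl-tRNA synthetase, had the next smallest q and lay on the other side, at 75.9 FPKM in plus Dox cells and 69.8 FPKM in minus Dox cells (log2 fold change 0.12, q = 0.171 in the authors' deposited table). Eprs joins glutamyl- and prolyl-tRNA synthetase in one protein, and its transcript stood at 84.1 FPKM in plus Dox and 88.6 FPKM in minus Dox cells.

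The other enzymes of the complex were not called either. Rars (arginine) had 113 FPKM in plus Dox cells and 121 FPKM in minus Dox cells, and Qars (glutamine) had 92.5 FPKM in plus Dox and 93.3 FPKM in minus Dox cells. Lars (leucine) had 73.7 FPKM in plus Dox and 72.1 FPKM in minus Dox cells, and Iars (isoleucine) 51.9 FPKM in plus Dox and 52.3 FPKM in minus Dox cells. Mars (methionine) stood at 62.9 FPKM in plus Dox cells and 68.1 FPKM in minus Dox cells, in a row that shares its locus with Ddit3. Among the scaffold genes, Aimp1 (138 and 139 FPKM in plus and minus Dox cells), Eef1e1 (110 and 111 FPKM in plus and minus Dox cells) and Aimp2 (72.7 and 70.8 FPKM in plus and minus Dox cells) had log2 fold changes between -0.02 and 0.04. None of the 3 passed q under 0.05 in the authors' deposited table, against 23.2% of all tested rows. None had an unadjusted p under 0.05, against 5780 of all 18537 tested rows.

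Of the 12 cytosolic enzymes outside the complex, 10 were tested and 0 were called in the authors' deposited table, and 0 had an unadjusted p under 0.05. Of all 18537 tested rows, 23.2% were called and 5780 had such a p. Sars (serine) stood at 124 FPKM in plus Dox and 119 FPKM in minus Dox cells, Gars at 120.1 FPKM in plus Dox and 119.6 FPKM in minus Dox cells, and Nars (asparagine) at 119 FPKM in plus Dox and 112 FPKM in minus Dox cells. These 3 were the most abundant of the free enzymes in both groups. Tars (threonine) had 91.9 FPKM in plus Dox and 98.4 FPKM in minus Dox cells, and Vars (valine) 70.5 FPKM in plus Dox and 76.2 FPKM in minus Dox cells. Aars (alanine) had 63.0 FPKM in plus Dox cells and 60.5 FPKM in minus Dox cells. Yars (tyrosine) had 48.9 FPKM in plus Dox cells and 51.2 FPKM in minus Dox cells.

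Phenylalanyl-tRNA synthetase is built from alpha and beta subunits encoded by Farsa and Farsb. Farsb stood at 76.6 FPKM in plus Dox cells and 83.1 FPKM in minus Dox cells (log2 fold change -0.12, q = 0.259 in the authors' deposited table), and the untested Farsa at 65.4 FPKM in plus Dox cells and 67.2 FPKM in minus Dox cells. Wars (tryptophan), also untested, stood at 41.8 FPKM in plus Dox cells and 44.9 FPKM in minus Dox cells. Hars (histidine) had 52.9 FPKM in plus Dox cells and 57.3 FPKM in minus Dox cells. It is listed at the same locus as Hars2 (mm9 chromosome 18, 36926184 to 36952216), and since the protocol mentions no strand marking, reads of this pair of similar, neighbouring genes may not be separable.

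The mitochondrial enzymes spanned a wider range of levels. Lars2 stood at 56.1 FPKM in plus Dox cells and 60.6 FPKM in minus Dox cells, and Yars2 at 42.6 FPKM in plus Dox cells and 46.2 FPKM in minus Dox cells. Next came Rars2 (25.4 FPKM in plus Dox, 25.8 FPKM in minus Dox), Tars2 (23.3 FPKM in both) and Iars2 (22.6 FPKM in plus Dox, 20.7 FPKM in minus Dox). At the low end stood Pars2, the prolyl-tRNA synthetase (5.51 FPKM in plus Dox, 5.03 FPKM in minus Dox), Mars2 (3.31 FPKM in plus Dox, 3.47 FPKM in minus Dox) and Wars2 (3.20 FPKM in plus Dox, 3.04 FPKM in minus Dox). The 8 remaining genes, Hars2, Sars2, Cars2, Ears2, Vars2, Fars2, Aars2 and Nars2, lay between 6.16 and 13.3 FPKM in plus Dox cells and between 6.13 and 14.0 FPKM in minus Dox cells. Because the group values carry no error, the order of neighbours in this list cannot be resolved.

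Apart from Cars2, the log2 fold changes of the mitochondrial genes lay between -0.12 (Sars2) and 0.13 (Pars2). Iars2 came nearest to a call on the higher side, with a log2 fold change of 0.13 (95% interval -0.02 to 0.28, q = 0.268 in the authors' deposited table), in a row that shares its locus with Rab3gap2 and small RNA genes. Lars2 came nearest on the lower side, with a log2 fold change of -0.11 (95% interval -0.24 to 0.01, q = 0.213 in the authors' deposited table). The widest interval was that of Hars2, with a fold between 0.725 and 1.34. Its level was 13.3 FPKM in plus Dox cells and 13.5 FPKM in minus Dox cells.

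As a set the cytosolic genes had a median log2 fold change of -0.07 over 18 tested members, of which 12 lay below 0 and 6 above. The mitochondrial genes had a median of -0.02 over 16 tested members, with 9 below 0 and 7 above. Over all tested rows with a fold change the median was -0.03. Over rows in the range of levels of the cytosolic members it was -0.08, and over rows in that of the mitochondrial members -0.04. The median size without sign was 0.08 in cytosolic members, against 0.12 over rows in their range of levels, and 0.09 in mitochondrial members, against 0.15 over rows in theirs, while over all tested rows it was 0.22. The difference between the compartments was not tested, because genes are not replicates. Summed over the 20 cytosolic genes the level was 1649 FPKM in plus Dox cells and 1695 FPKM in minus Dox cells, and over the 16 mitochondrial genes 264 FPKM in plus Dox cells and 273 FPKM in minus Dox cells.

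**Figure D3:**
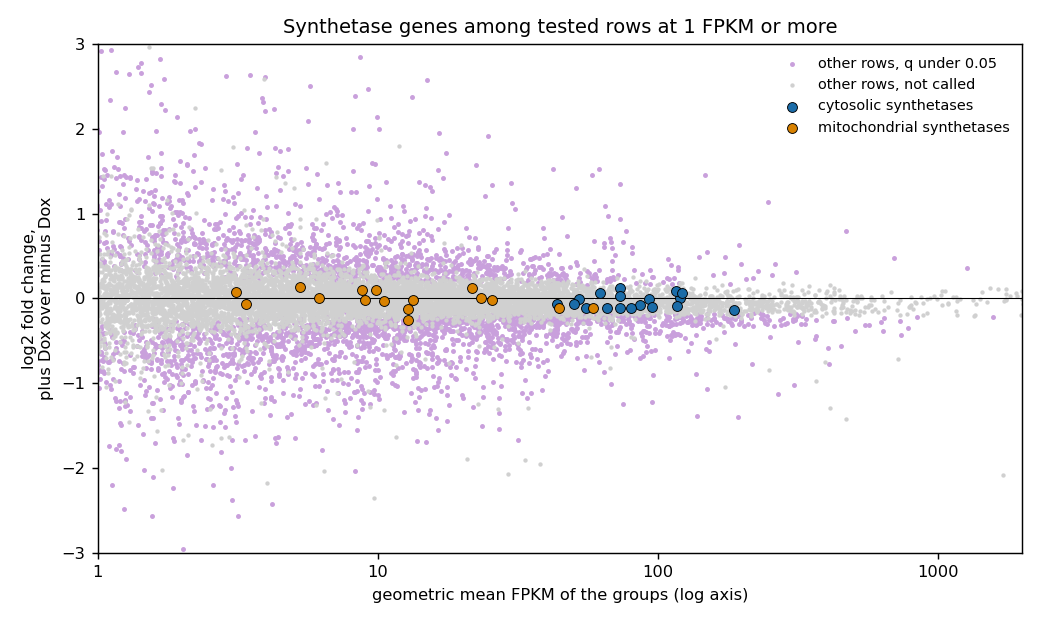
Log2 fold change, plus Dox over minus Dox, against the geometric mean FPKM of the groups (log axis) for 12245 tested rows that reach 1 FPKM in either group, of which 45 lie beyond the vertical and 46 beyond the horizontal range. Synthetases (large points) lie between -0.26 and 0.13, where -0.26 is Cars2, which was called lower, and the other tested members, none of them called, lie between -0.14 and 0.13.

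How far other genes moved gives a scale for these values. Cars2 had a log2 fold change of 0.26 in size, a value reached or passed by 44.1% of 18284 tested rows with a fold change and by 29.1% of 9133 such rows in the members' range of levels. Kars, second among members by size, was reached or passed by 63.9% of all these rows and by 52.0% of those in the same range. No tested member reached 0.5 on the log2 scale, which 24.8% of all these rows and 12.3% of those in the same range did. These shares were not adjusted for the error of each row.

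In 13 cases a cytosolic gene and the mitochondrial gene with the same symbol plus a final 2 were both listed. The cytosolic gene had the higher FPKM in all 13 pairs in both groups. These levels carry no error, so the order is not resolved where the ratio is near 1, and Hars and Hars2 share a locus. Phenylalanine (Farsa and Farsb with Fars2), glutamate (Eprs with Ears2) and proline (Eprs with Pars2) also had members in both compartments. They were not paired here because their symbols do not match in this way. The ratio of the cytosolic to the mitochondrial level ran from 1.15 to 19.3 in plus Dox cells (median 4.46) and from 1.11 to 19.6 in minus Dox cells (median 4.69). It was smallest for tyrosine, where Yars over Yars2 gave 1.15 in plus Dox cells and 1.11 in minus Dox cells, and for leucine, where Lars over Lars2 gave 1.31 in plus Dox cells and 1.19 in minus Dox cells. The largest ratios were those of Nars over Nars2 (19.3 in plus Dox, 18.3 in minus Dox) and Mars over Mars2 (19.0 in plus Dox, 19.6 in minus Dox). For Cars over Cars2 the ratio was 3.64 in plus Dox cells and 3.19 in minus Dox cells, a log2 difference of 0.19 (95% interval -0.07 to 0.45). For the 12 pairs with both genes tested, the interval of the change in ratio held 0 in all 12, with errors combined as if the genes were independent.

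**Figure D4:**
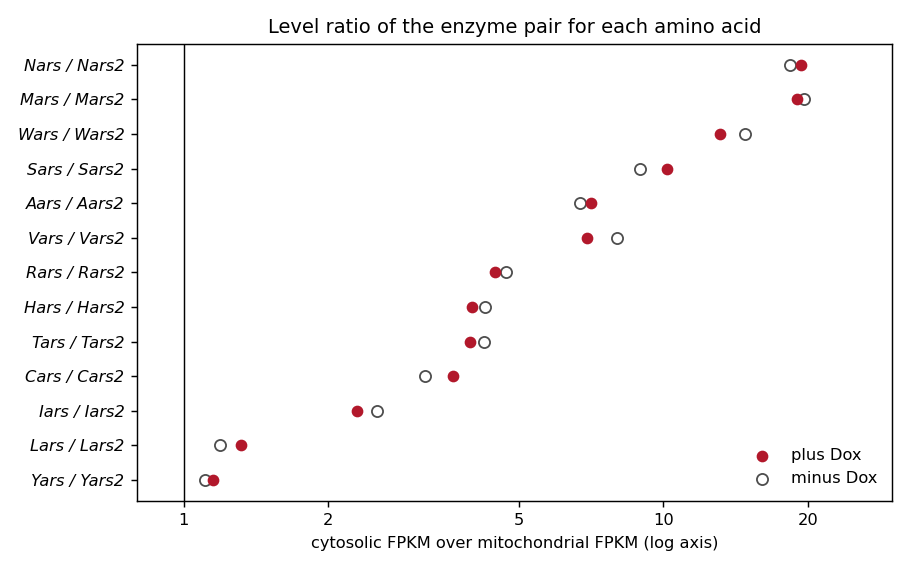
Ratio of cytosolic to mitochondrial FPKM on a log axis for the 13 amino acids with both enzymes listed, with filled points for plus Dox and open points for minus Dox cells. All ratios lie above 1, from 1.11 to 19.6, and Yars / Yars2 is lowest in both groups.

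Synthetases also fall into class I and class II by the fold of their catalytic domain. Calls in the authors' deposited table numbered 1 of 17 tested class I members (Cars2) and 0 of 16 tested class II members. The share over all tested rows was 23.2%. Each class had 1 member at an unadjusted p under 0.05, against 5780 of all 18537 tested rows. The median log2 fold change was -0.06 in class I and 0.00 in class II. Eprs, which joins an enzyme of each class, was counted in neither. Kars and Gars, the genes that serve both compartments, had log2 fold changes of -0.14 and 0.01.

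The amino acid response was examined because ATF4 is known to act on both synthetases and enzymes of amino acid supply. Of 30 tested genes of that response outside the synthetases, the authors' deposited table calls 10 higher, 3 lower and leaves 17 uncalled, so 43.3% changed against 23.2% of all tested rows. Of the 12 tested cytosolic synthetases known as ATF4 targets, 0 were called and 0 had an unadjusted p under 0.05, with a median log2 fold change of -0.04. The other 6 tested cytosolic members had a median of -0.11 and 0 calls, and 1 unadjusted p under 0.05. Such a p was met by 5780 of all 18537 tested rows. Whether the synthetases and the other ATF4 targets differ was not tested.

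Asns, asparagine synthetase, rose to 78.9 FPKM in plus Dox cells, against 51.9 FPKM in minus Dox cells (1.52-fold, q = 1.15e-11 in the authors' deposited table). Nars, which loads asparagine, had a fold of 1.06 (95% interval 0.971 to 1.15). The 3 enzymes of serine synthesis rose as well, Phgdh 1.32-fold to 227 FPKM, Psat1 1.30-fold to 134 FPKM and Psph 1.23-fold to 40.0 FPKM in plus Dox cells, with q = 1.59e-06, 9.42e-07 and 0.00291 in the authors' deposited table. Sars, which loads serine, had a fold of 1.05 (95% interval 0.954 to 1.15). The 95% interval of Asns ran from 0.44 to 0.77 on the log2 scale and that of Psph, the smallest of these rises, from 0.13 to 0.46. The interval was -0.04 to 0.21 for Nars and -0.07 to 0.20 for Sars, and that of Psph overlapped both. The differences between these genes were not tested.

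Sesn2, a stress-induced regulator of mTORC1, rose 1.49-fold to 35.3 FPKM in plus Dox cells, and Chac1, a glutathione-degrading enzyme, rose 1.26-fold to 6.99 FPKM in plus Dox cells (the authors' deposited table gives q as 0 for Sesn2 and as 0.00828 for Chac1). Of 7 tested transporter genes in that list, 1 rose, 3 fell and 3 were not called, against 23.2% called over all tested rows. Slc1a4, a carrier of neutral amino acids, rose to 9.74 FPKM in plus Dox cells, against 8.13 FPKM in minus Dox cells (q = 0.0038 in the authors' deposited table). Slc7a3, a carrier of cationic amino acids, fell to 62.3 FPKM in plus Dox cells, against 145 FPKM in minus Dox cells (q of 0 as printed by the authors' deposited table). Slc38a2, a carrier of small neutral amino acids, fell to 64.9 FPKM in plus Dox cells, against 82.3 FPKM in minus Dox cells (q = 1.94e-06 in the authors' deposited table). Slc7a11, the cystine carrier, fell to 2.45 FPKM in plus Dox cells, against 3.46 FPKM in minus Dox cells (q = 1.7e-09 in the authors' deposited table). Atf4 itself stood at 117 FPKM in plus Dox cells and 129 FPKM in minus Dox cells (q = 0.108 in the authors' deposited table), and Trib3 and Ddit3, further targets, were not called. ATF4 acts mainly through the amount of its protein, which these data do not measure.

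Promoters of Aars and Yars, the cytosolic members with the most matches to GATGNAA (2 in the full window of each, 1 of them in the stretch printed), are set beside that of Asns. Each line holds the 250 bases before the start as for Cars2, with the same motifs in capitals, and neighbouring GC boxes in Yars overlap. The windows in GRCm38.p6 are chr8:111033592-111033841, plus strand, for Aars, chr4:129189653-129189902, plus strand, for Yars, and chr6:7693210-7693459, minus strand, for Asns.
Aars: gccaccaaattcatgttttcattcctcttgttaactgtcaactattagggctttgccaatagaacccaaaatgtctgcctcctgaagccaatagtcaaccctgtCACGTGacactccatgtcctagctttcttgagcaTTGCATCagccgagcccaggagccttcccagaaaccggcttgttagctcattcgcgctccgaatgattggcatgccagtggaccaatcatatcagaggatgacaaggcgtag
Yars: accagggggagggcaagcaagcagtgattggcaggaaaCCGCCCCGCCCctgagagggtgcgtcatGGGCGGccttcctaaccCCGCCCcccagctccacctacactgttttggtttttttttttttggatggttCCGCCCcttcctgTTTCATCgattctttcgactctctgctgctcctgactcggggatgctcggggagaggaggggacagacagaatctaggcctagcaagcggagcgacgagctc
Asns: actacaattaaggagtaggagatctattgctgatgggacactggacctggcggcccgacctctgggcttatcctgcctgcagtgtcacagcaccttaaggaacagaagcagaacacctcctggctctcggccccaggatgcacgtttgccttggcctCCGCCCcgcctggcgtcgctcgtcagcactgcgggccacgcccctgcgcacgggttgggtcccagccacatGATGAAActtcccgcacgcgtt
In these stretches the GATGNAA letters, or their complement, begin 112 bases before the start in Aars, 102 in Yars and 22 in Asns. In full windows they were found in 5 of 12 windows of cytosolic members (Aars, Gars, Iars, Tars and Yars), in 0 of 15 windows of mitochondrial members and in 12.3% of all windows, or 8.25% of those of tested genes. All 5 genes are among the 7 synthetases known as ATF4 targets that had an entry, and of 28 other genes of the amino acid response with an entry 10 held the letters. The 28 genes had 34 windows, so the count of 10 is by gene, whereas the shares above are by window. With these letters, Aars had a fold of 1.04 (95% interval 0.900 to 1.21) and Yars of 0.956 (0.839 to 1.09). Neither was called, nor were Gars, Iars and Tars. Of the 10 response genes with the letters, Asns, Chac1, Nupr1 and Slc1a4 were called higher and Slc7a11 lower. Atf3, Ddit3, Pycr1, Slc7a1 and Trib3 held the letters and were not called. The share called was 43.3% over all 30 tested response genes, with or without the letters, and 23.2% over all tested rows. Whether the letters go with a change was not tested.

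**Figure D5:**
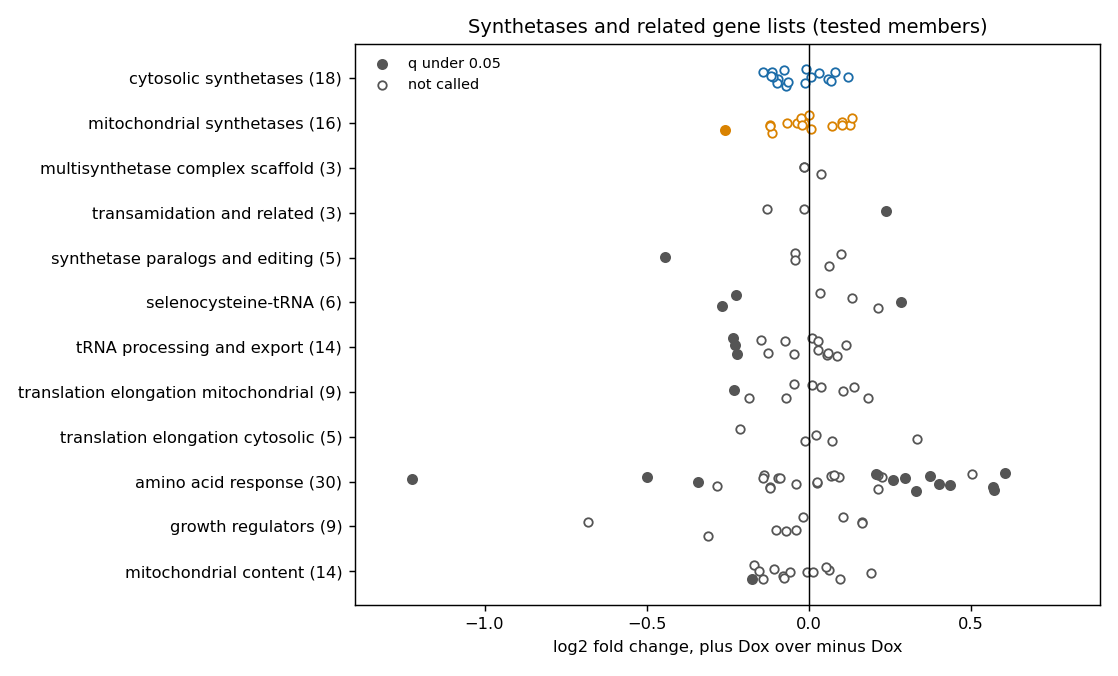
Log2 fold change, plus Dox over minus Dox, of every tested member of the synthetases and of related gene lists (number of tested genes in brackets), with filled points for q under 0.05 in the authors' deposited table and vertical jitter for display only. The cytosolic synthetases have no filled point, the mitochondrial ones have 1 (Cars2), and the amino acid response has 13.

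Among genes that act beside the synthetases, single members changed by small amounts, and the counts of calls are to be read against the 23.2% called over all tested rows. Among transamidation genes, which make mitochondrial glutamine-tRNA, Gatc rose to 12.3 FPKM in plus Dox cells, against 10.4 FPKM in minus Dox cells (q = 0.0246 in the authors' deposited table). Qrsl1 and the formyltransferase gene Mtfmt were not called. Of 5 tested paralogs and editing factors, Prorsd1, a relative of the editing domain of prolyl-tRNA synthetase, fell to 11.4 FPKM in plus Dox cells, against 15.6 FPKM in minus Dox cells (q = 0.000575 in the authors' deposited table), and 4 were not called. For tRNA processing and export, 3 of 14 tested genes (21.4%) fell and 0 rose, a share near the 23.2% of all tested rows. Those called were Rpp30 of RNase P, the tRNA 3′ endonuclease gene Elac2 and Ssb, which encodes the La protein, with folds between 0.851 and 0.858. Elac2 and Ssb, like Psat1, Sesn2, Sephs1 and Eefsec, have a locus that is also listed for a further row.

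In the selenocysteine pathway 1 of 6 tested genes rose and 2 fell in the authors' deposited table, against 23.2% called in either direction over all tested rows. Eefsec, the selenocysteine elongation factor, rose 1.22-fold to 9.99 FPKM in plus Dox cells, while the selenophosphate synthetase genes Sephs1 and Sephs2 fell, to 38.2 FPKM in plus Dox cells, against 46.0 FPKM in minus Dox cells, and to 47.9 FPKM in plus Dox cells, against 56.0 FPKM in minus Dox cells. Among mitochondrial translation factors 1 of 9 tested genes was called (11.1%, against 23.2% of all tested rows), namely Tufm, the mitochondrial elongation factor Tu, which fell to 49.6 FPKM in plus Dox cells, against 58.2 FPKM in minus Dox cells (q = 0.00235 in the authors' deposited table). Of 5 tested cytosolic elongation genes 0 were called, with 2 at an unadjusted p under 0.05, and Eef1a1 and Eef2 were listed at 0 with a status that marks too many fragments, which is no level. Of 14 tested genes of mitochondrial content 1 fell, or 7.14% against 23.2% of all tested rows (Vdac1, 207 FPKM in plus Dox cells, against 234 FPKM in minus Dox cells). Among 9 growth regulators 0 were called in the authors' deposited table, with 2 at an unadjusted p under 0.05. Over all 18537 tested rows, 5780 had such a p. Myc stood at 13.6 FPKM in plus Dox cells and 13.9 FPKM in minus Dox cells.

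Markers of cell types changed between the same groups, and their counts are to be read against the 23.2% called over all tested rows. All 6 primitive streak markers rose in the authors' deposited table, T (Brachyury) to 103 FPKM in plus Dox cells, against 0.745 FPKM in minus Dox cells. Of 7 tested stem cell and epiblast markers 1 rose and 4 fell. Nanog rose to 117 FPKM in plus Dox cells, against 46.0 FPKM in minus Dox cells. Fgf5 fell to 17.8 FPKM in plus Dox cells, against 56.5 FPKM in minus Dox cells. Utf1 fell to 119 FPKM in plus Dox cells, against 314 FPKM in minus Dox cells. Dppa4 and Lin28a also fell. Pou5f1 (1058 FPKM in plus Dox cells, 999 FPKM in minus Dox cells) and Sox2 were not called. Of 8 primitive and visceral endoderm markers 5 fell, with a summed level of 103 FPKM in plus Dox cells and 125 FPKM in minus Dox cells. Of 9 tested markers of feeder fibroblasts 2 rose (Col1a1 and Prrx1) and 3 fell (Thy1, Dcn and Twist1). Col1a1 and Prrx1, like Lin28a, have a locus that is also listed for a further row. Col1a1 stood at 4.43 FPKM in plus Dox and 1.11 FPKM in minus Dox cells, and Thy1 at 6.42 FPKM in plus Dox and 9.34 FPKM in minus Dox cells. The summed level over 10 markers, in which these rises and falls offset each other, was 17.6 FPKM in plus Dox cells and 17.9 FPKM in minus Dox cells. No feeder fibroblast marker was above 9.34 FPKM in a group. The part of these cells in the synthetase levels was not tested, and in bulk RNA, fewer cells of a type and less RNA per cell cannot be told apart.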

How the data were processed

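RNA was measured in 6 libraries of mouse A2Lox.cre ES cells, 3 plus Dox and 3 minus Dox. Poly(A) mRNA was captured with oligo-dT beads for TruSeq RNA libraries, per the labels' protocols. Per the submitters' processing notes, reads were handled with Cufflinks 2.0.2, Cuffdiff, TopHat2 2.0.8, Bowtie and Picard, on mm9. Annotation and library scaling: not given in the sources used here. The table of 36699 rows holds 1 FPKM value per group, as the authors deposited it, so depth is unknown and no SD can be given. The log2 fold changes, test statistics, p-values and q-values are the authors' own, per the file headers. The table was checked. The two-sided normal p of the test statistic matched the deposited p-value to within 2.84e-06 in 18284 rows, Benjamini-Hochberg adjustment over 18537 rows with status OK matched the deposited q-value to within 1.79e-06, and the authors' mark of significance matched q under 0.05 in every row.

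Fold changes were computed as the ratio of the deposited values, plus Dox over minus Dox, without a pseudocount. Standard errors were obtained as the log2 ratio divided by the deposited statistic, without sign. The 95% intervals are 1.96 of these errors on either side, which take the authors' normal approximation as given. The arithmetic for errors and adjusted p-values was checked on simulated data drawn with known normal errors. That check cannot show whether the authors' errors are right for these libraries. The range of levels of the members, 3.20 to 196 FPKM, refers to the higher group of each row. Gene lists, comparisons and alternatives were chosen with earlier results of these data known, and lists are described by counts and medians without a set test. All members are accounted for; those named in full are the called one, those nearest the threshold and those that complete a role group or amino acid pair. Coordinates are those of the table in mm9, written from 1. Reading its starts as 0-based made 11723 of 28028 gene lengths equal to those of GENCODE vM21, and reading them as 1-based 319. Promoter letters are from RefSeq (GRCm38.p6), and no coordinate was carried between builds. Python 3.11.15, numpy 2.4.6, pandas 2.3.3, scipy 1.17.1 and matplotlib 3.10.9 were used.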

Additional observations from a re-analysis of the deposited data

How the results depend on the processing

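No paired analysis was possible because the table gives 1 value per group, and for the same reason no library could be left out. No cytosolic member was called in either direction under any of the 7 other call rules tried, and no mitochondrial member was called higher. The Cars2 call held at q under 0.1, among rows at 1 FPKM or more and at 5 FPKM or more, and among rows that share no locus (q = 0.0346). It was lost at q under 0.01, with a minimum fold of 1.5 and under Benjamini-Yekutieli adjustment, where 0 mitochondrial members were called lower. Over all tested rows, a minimum fold of 1.5 left 1117 rows higher and 967 lower, against 1949 and 2357 without it. With 5 FPKM or more in the higher group, 862 rows were higher and 1546 lower, and Benjamini-Yekutieli adjustment left 1555 lower. These counts follow from stricter rules or fewer rows. The median log2 fold change of the cytosolic members lay between -0.07 and -0.02 over the alternatives. That of the mitochondrial members was -0.02, and 0.03 when values were centred on the median of tested rows at 1 FPKM or more (-0.04). Of 72 values of single members on other scales, 7 had another sign, none of them called, and those of tested members stayed within 1 standard error of the reported value. Of the 36 members, 15 share a locus with another row, and their reads may not be separable. Values of single libraries were not analysed here.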
